A study of Mus musculus with 6 samples.

Results

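The genes described here encode the AP-1 and NR4A transcription factors of the early response to growth factors: FOS, FOSB, FOSL1, FOSL2, JUN, JUNB, JUND, NR4A1, NR4A2 and NR4A3. They were chosen by name, through every probe of a bead array whose gene symbol was one of these 10. Of the 45281 probes, 14 belonged to 9 of the 10 genes, with JUND listed under its synonym JUND1. FOSL1 was not analysed here. A probe counted as detected on an array at a detection p-value under 0.05 against the array's negative control beads, and it was retained where both arrays of any group detected it. This left 8 of the 14 probes and 7 of the genes (FOS, FOSB, FOSL2, JUN, JUNB, JUND and NR4A2) among the 11872 genes tested. The tested probes of 6 of these 7 were detected on all 6 arrays, and FOS on 5.

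FOS and JUN family proteins carry a leucine zipper through which they pair with each other, and the pair, named AP-1, binds short DNA sites such as TGACTCA. NR4A proteins are orphan nuclear receptors, which act without a known natural ligand that switches them on. Several genes of both families, though not all, are classical immediate early genes. Growth factor receptors act through the ERK kinases on regulators that are already in the cell. Transcription of such genes then rises within minutes and usually fades again. In mesenchymal cells, AP-1 is known for driving proliferation, matrix proteases and cytokines.

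The cells were PA6, a mouse stromal line that serves as feeder layer for embryonic stem (ES) cells. Confluent monolayers of PA6 cells alone spent 3 h in serum-free medium without growth factors (-GFs), with recombinant FGF2 at 20 ng/ml, or with recombinant BMP4 at 10 ng/ml according to the labels (the methods on co-cultures give a lower dose of BMP4). Each group had 2 replicates on 1 array each, and a replicate number stands for 1 set of 3 wells. As a single line, PA6 gives no spread between lines or animals. The purpose of the 3 h cultures was to see which early genes the stroma switches on when it meets either factor. A single time gives no course over time, and fewer cells of a kind and less RNA per cell cannot be told apart in such bulk RNA.

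The arrays were of similar brightness, with median intensities between 153 and 168 before normalization and 15509 to 16459 detected probes per array. Of 15 stromal and mesenchymal markers, 14 were detected on all 6 arrays. Their summed normalized intensity was 235500 and 238600 on the -GFs arrays at the lowest and highest, 211500 and 215600 with FGF2, and 231200 and 243100 with BMP4, so that it was lower on both FGF2 arrays. The markers went both ways, with 5 of the 14 tested higher with FGF2, and TWIST1, a mesenchymal transcription factor, was called higher (1.18, limma adjusted p = 0.0106). Of the markers of other cells, 5 of the 8 haematopoietic genes on the array, 5 of 7 endothelial, 3 of 5 embryonic stem and 4 of 5 epithelial ones were detected on no array. The haematopoietic sum was lower on the FGF2 arrays (3889 to 4049) and the BMP4 arrays (4045 to 4141) than in -GFs medium (4287 to 4352). Against -GFs medium (1383 to 1412), the embryonic stem sum was lower with FGF2 (1310.0 to 1364) and higher with BMP4 (1461 to 1473). The marker sums include probes that were detected on no array. The summed normalized intensity of the 9 adipocyte markers differed between replicate numbers within each group, from 3992 to 7159 in -GFs medium, from 3833 to 7111 with FGF2 and from 4284 to 8285 with BMP4. The part of these marker sums in the results was not tested.

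FGF2 raised 4 of the 7 tested genes at 3 h: JUNB 4.24-fold, FOS 3.04-fold, FOSL2 2.38-fold and JUN 2.36-fold over -GFs medium. On the array's scale these genes hold both sides of an AP-1 pair, since FOS and FOSL2 are FOS family members and JUN and JUNB are JUN family members. JUND, NR4A2 and FOSB did not pass the test, and no probe of NR4A1 or NR4A3 was detected. A gene was called at an absolute log2 fold change over 1 and a Benjamini-Hochberg adjusted p under 0.1 in limma over all genes tested. Of all 11872 genes, 2.28% were called higher with FGF2 by the same rule. The median log2 fold change over all genes was -0.02.

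**Figure D1:**
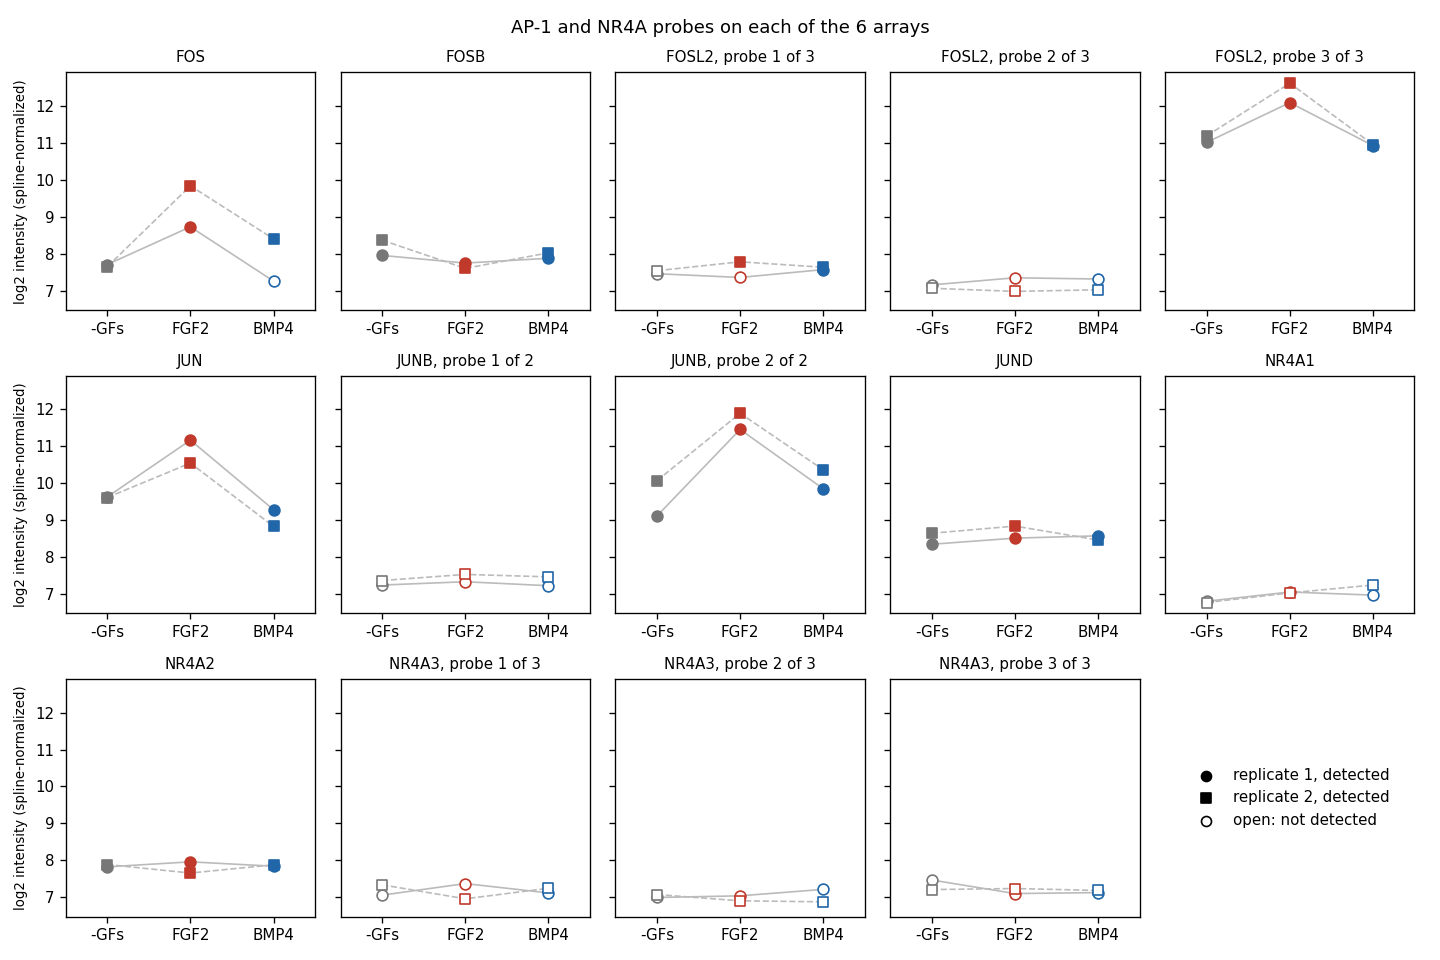
Log2 normalized intensity of each of the 14 probes (one panel a probe) in the 3 groups, with circles for replicate 1, squares for replicate 2 and open symbols where the probe was not detected. FOS, JUN, one probe of FOSL2 and one of JUNB were higher on both FGF2 arrays than on all others, while the probes of NR4A1 and NR4A3 were open throughout.

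FOS, the founding partner of JUN in AP-1, gave normalized intensities of 209.5 and 201 (replicates 1 and 2) in -GFs medium, 425 and 918 with FGF2, and 153 and 339 with BMP4. Both FGF2 arrays lay above all 4 others, but they differed from each other by 1.11 on the log2 scale. On the BMP4 array of replicate 1, FOS was not detected, with a detection p of 0.304. In -GFs medium it was near the detection limit, with detection p of 0.015 and 0.0417. The log2 fold change of FGF2 over -GFs was 1.61 (standard error 0.45, limma adjusted p = 0.092), and it was 1.02 within replicate 1 and 2.19 within replicate 2. FOS ranked at 63 of 11872 genes by its rise. In this fit, without a block for the replicate number, it stood close to the threshold on the adjusted p. With that block, its limma adjusted p was 1.95e-05 (standard error 0.21) at the same fold change.

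FOSL2 encodes FRA2, a FOS protein without the strong activation domain of FOS. Its brightest probe gave normalized intensities of 2078 and 2349 in -GFs medium, 4383 and 6310.0 with FGF2, and 1953 and 1994 with BMP4. The FGF2 arrays were the highest, and the remaining 4 arrays lay close together. The log2 fold change was 1.25 (standard error 0.20, limma adjusted p = 0.0218), with 1.08 and 1.43 in replicates 1 and 2. The other probes of FOSL2 did not share this rise. One of them was detected on both BMP4 arrays, on 1 FGF2 array and on no -GFs array, with intensities between 164 and 220.5 and a log2 fold change of 0.07 for FGF2 (limma adjusted p = 0.856 with every probe tested). The third was detected on no array and lay between 126 and 163. With the mean of the 2 retained probes in place of the brighter one, the log2 fold change of FOSL2 was 0.66 and the gene was not called.

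JUN, the partner that can also pair with itself, gave normalized intensities of 792 and 783 in -GFs medium, 2299 and 1495.5 with FGF2, and 623 and 455 with BMP4. The groups did not overlap in either direction: both FGF2 arrays were the highest and both BMP4 arrays the lowest. The log2 fold change of FGF2 over -GFs was 1.24 (standard error 0.25, limma adjusted p = 0.0383), with 1.54 in replicate 1 and 0.93 in replicate 2.

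JUNB, a JUN protein known to act as a weaker activator that can hold JUN in check, had the largest fitted rise of the 7 genes, though with neqc normalization FOS rose more (2.69 against 2.31) and without -GFs replicate 1 both came to 1.61. Its detected probe gave normalized intensities of 555 and 1075 in -GFs medium, 2811 and 3807 with FGF2, and 923 and 1318 with BMP4. The FGF2 arrays lay above all others, while -GFs and BMP4 arrays overlapped. The log2 fold change was 2.08 (standard error 0.35, limma adjusted p = 0.0227), with 2.34 and 1.82 in replicates 1 and 2, and the gene ranked at 26 of 11872. The other JUNB probe was detected on no array and stayed between 149 and 185.

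**Figure D2:**
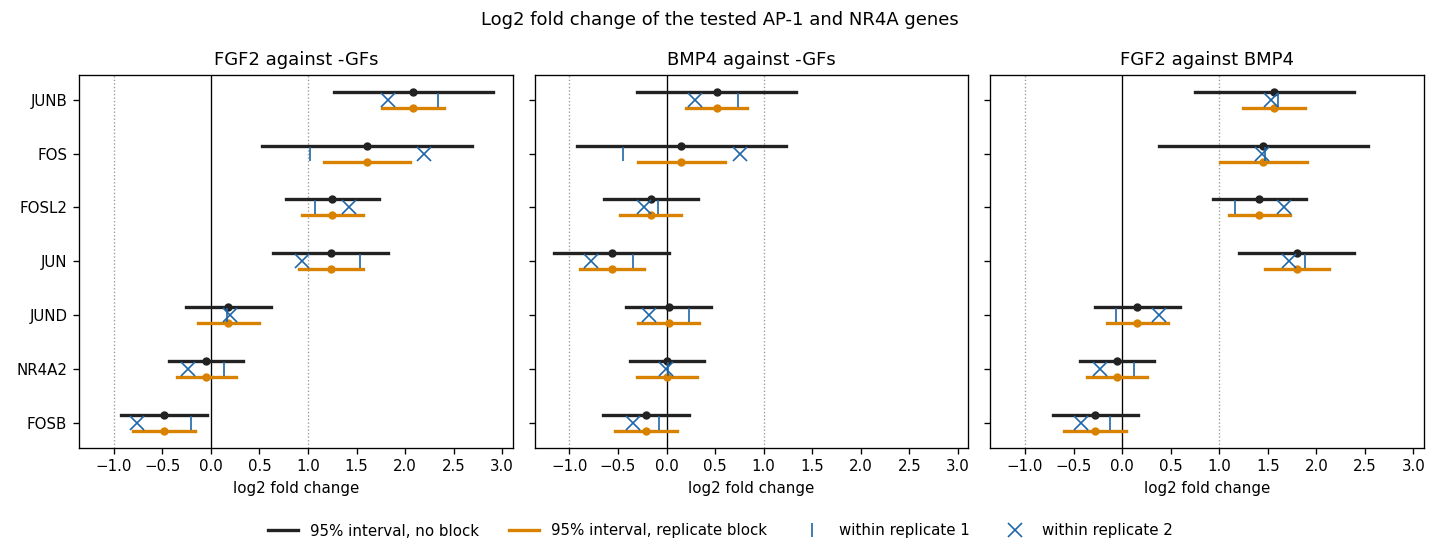
Log2 fold change of the 7 tested genes in 3 comparisons, with limma's estimate and 95% interval without a block (black) and with a block for the replicate number (orange), and the values within replicate 1 (bar) and replicate 2 (cross). For FGF2 against -GFs, both replicates of JUNB, FOS, FOSL2 and JUN lay to the right of 0, and dotted lines mark a log2 fold change of 1 in either direction.

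With 2 arrays a group, the smallest two-sided p of an exact permutation test is 0.333, so the tests given are limma's, and their p-values rest on 3 residual degrees of freedom and on a spread shared between genes. Calls for FGF2 were lost when single arrays were left out: FOSL2 and JUNB were called without -GFs replicate 1 or without -GFs replicate 2, FOSL2 alone without FGF2 replicate 1, and none of the 4 without FGF2 replicate 2. In that last fit, the log2 fold changes were 1.86 for JUNB, 1.54 for JUN, 1.06 for FOS and 0.98 for FOSL2. Over all genes, 271 were called higher on all arrays. That number fell strongly without either FGF2 array and hardly changed without either -GFs array. The methods' t-test with Benjamini-Hochberg adjustment called 0 of all 11872 genes in this comparison, so it tells nothing about these genes. For these 4 genes, picked by their calls on the same arrays, both FGF2 arrays lay above both -GFs arrays. This is no separate support, and the share of all genes with such a gap was not counted. Leaving out 1 of the 6 arrays could therefore hardly turn their direction, and it did not. FOS moved the most, with a log2 fold change of 1.06 without FGF2 replicate 2 and 2.16 without FGF2 replicate 1. Neither the fits with 1 array left out nor the t-test took the pairing by replicate number into account. With the replicate number in the model as a block and all 6 arrays, the same 4 genes were called for FGF2, where 2.51% of all genes were called higher.

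The promoters of the 4 genes that rose are shown because these genes rose in the same group. They are the 250 bases before the start of each gene in RefSeq (GRCm38.p6), written 5′ to 3′ on the strand of the gene, at chr12:85473640-85473889 (plus strand) for FOS, chr5:32136222-32136471 (plus) for FOSL2, chr4:95052223-95052472 (minus) for JUN and chr8:84978749-84978998 (minus) for JUNB. Capitals mark TGACG, the core of the cAMP response element, in FOS and JUNB, and in JUN the ATF-like site TGACATCA and a MEF2 site. FOSL2 holds none of these and has no capitals.
FOS: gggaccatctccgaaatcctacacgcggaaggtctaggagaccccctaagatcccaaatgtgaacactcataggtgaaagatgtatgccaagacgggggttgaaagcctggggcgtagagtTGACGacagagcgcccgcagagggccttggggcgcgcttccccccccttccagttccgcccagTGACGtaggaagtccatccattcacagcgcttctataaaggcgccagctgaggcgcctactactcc
FOSL2: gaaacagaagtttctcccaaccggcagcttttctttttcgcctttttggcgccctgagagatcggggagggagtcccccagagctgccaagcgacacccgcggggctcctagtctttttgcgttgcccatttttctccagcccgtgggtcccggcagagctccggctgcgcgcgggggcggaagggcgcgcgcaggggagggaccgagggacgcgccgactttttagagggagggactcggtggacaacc
JUN: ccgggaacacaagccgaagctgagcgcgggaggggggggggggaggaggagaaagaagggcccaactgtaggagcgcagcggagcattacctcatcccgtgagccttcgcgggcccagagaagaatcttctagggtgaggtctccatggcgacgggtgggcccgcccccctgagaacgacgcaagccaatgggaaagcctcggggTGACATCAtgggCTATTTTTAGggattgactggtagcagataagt
JUNB: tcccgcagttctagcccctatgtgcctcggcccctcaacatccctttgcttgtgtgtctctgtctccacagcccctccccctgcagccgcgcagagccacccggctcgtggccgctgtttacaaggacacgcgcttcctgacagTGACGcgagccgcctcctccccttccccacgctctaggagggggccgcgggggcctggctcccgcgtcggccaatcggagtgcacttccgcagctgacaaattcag

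The TGACG cores lie 129 to 125 and 66 to 62 bases before the start of FOS, and 106 to 102 bases before that of JUNB. In JUN, TGACATCA lies 45 to 38 bases before the start and the MEF2 site 33 to 24 bases before it. These letters were picked after the promoters had been read. On either strand, TGACG occurred in 17.9% of 27025 mouse promoters of the same length, TGACATCA in 3.02% and the MEF2 site in 0.518%. Promoters were found for 9 of the 10 genes. TGACG occurred once in FOSB, 4 times each in NR4A1, NR4A2 and NR4A3, and not in JUND. The other sites searched for, on both strands, were the AP-1 site TGACTCA (4.43% of promoters), the full cAMP response element TGACGTCA (1.62%) and its variant TGACGTAA (0.477%), both of which contain TGACG, the CArG box of serum response factor (1.40%), the NR4A element AAAGGTCA (1.31%) and the ETS site CCGGAAGT (2.93%). None of these letters was found in the windows of the 9 genes. The windows of FOSB and NR4A3 overlap the RefSeq span of the gene, and that of NR4A1 lies within it. The search says nothing of sites farther upstream, of sites at other starts of a gene or of factors that bind there.

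FOSB, the FOS relative best known from neurons, went the other way in response to FGF2 without passing the threshold. Its normalized intensities were 248 and 331 in -GFs medium, 215 and 195 with FGF2, and 236 and 261 with BMP4. Both FGF2 arrays lay below all 4 others. There the probe was near the detection limit, with detection p of 0.0128 and 0.0449. The log2 fold change was -0.48 (standard error 0.19, limma adjusted p = 0.175), with -0.21 and -0.76 in replicates 1 and 2. With neqc normalization it was -1.04, also without a call. With the replicate block, the adjusted p of FOSB was 0.0217, at the same fold change, and over all alternatives it lay between 0.0137 and 0.513. By that rule, an adjusted p under 0.1 whatever the fold, 19.6% of all genes were lower with FGF2.

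JUND, the JUN protein that most cells make all the time, gave normalized intensities of 326 and 400.3 in -GFs medium, 365 and 458 with FGF2, and 381 and 352 with BMP4. The 3 groups overlapped. The log2 fold change of FGF2 over -GFs was 0.18, with a 95% interval from -0.26 to 0.62 (limma adjusted p = 0.617).

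NR4A2, the receptor also called NURR1 and needed for dopamine neurons, gave 226 and 236 in -GFs medium, 248 and 201 with FGF2, and 229 and 235 with BMP4. Its groups overlapped as well, and the log2 fold change for FGF2 was -0.05, with a 95% interval from -0.43 to 0.33 (limma adjusted p = 0.89). The probe of NR4A1, the receptor called NUR77, gave 112 and 109 in -GFs medium, 133 and 131 with FGF2, and 125 and 151 with BMP4, and was detected on none of the arrays. The 3 probes of NR4A3, the receptor called NOR1, lay between 117 and 177 on all arrays and were not detected either. A probe that is not detected sets only an upper bound, so that a change of NR4A1 or NR4A3 at low levels was not detectable here.

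With BMP4, limma called none of the 7 tested genes, while JUN, at 0.677-fold, ranked at 11847 of 11872 genes by its rise and JUNB, at 1.43-fold, at 49. At an unadjusted limma p under 0.05 the count was 0 as well, against 215 of all 11872 genes, and the methods' t-test called none. With the replicate block 2 genes, JUN and JUNB, had an unadjusted limma p under 0.05 but no call. The number of all genes at that cut was not counted with the block. Over all genes, 0.00842% were called in either direction with BMP4 and 0.0842% with the replicate block. JUN was lower on both BMP4 arrays than on both -GFs arrays, with a log2 fold change of -0.56 (95% interval from -1.16 to 0.03, limma adjusted p = 0.999), and -0.35 and -0.78 within replicates 1 and 2. With the block its adjusted p was 0.271, and over all alternatives it lay between 0.112 and 1. JUNB was higher in both replicates, by 0.74 and 0.29 on the log2 scale, but its -GFs and BMP4 arrays overlapped (log2 fold change 0.51, 95% interval from -0.31 to 1.34, limma adjusted p = 0.999). Without -GFs replicate 1 the value of JUNB was 0.037, and without -GFs replicate 2 it was 0.99. Its adjusted p with the block was 0.308, the lowest of all alternatives, which reached 1.

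The other 5 tested genes had log2 fold changes between -0.21 (FOSB) and 0.15 (FOS) with BMP4. FOS was lower in replicate 1 and higher in replicate 2 (-0.45 and 0.75), and turned to -0.42 without BMP4 replicate 2. FOSL2 had a value of -0.16. JUND stood at 0.02 and NR4A2 at 0.0049, and the sign of both turned with median scaling (-0.055 and -0.026).

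**Figure D3:**
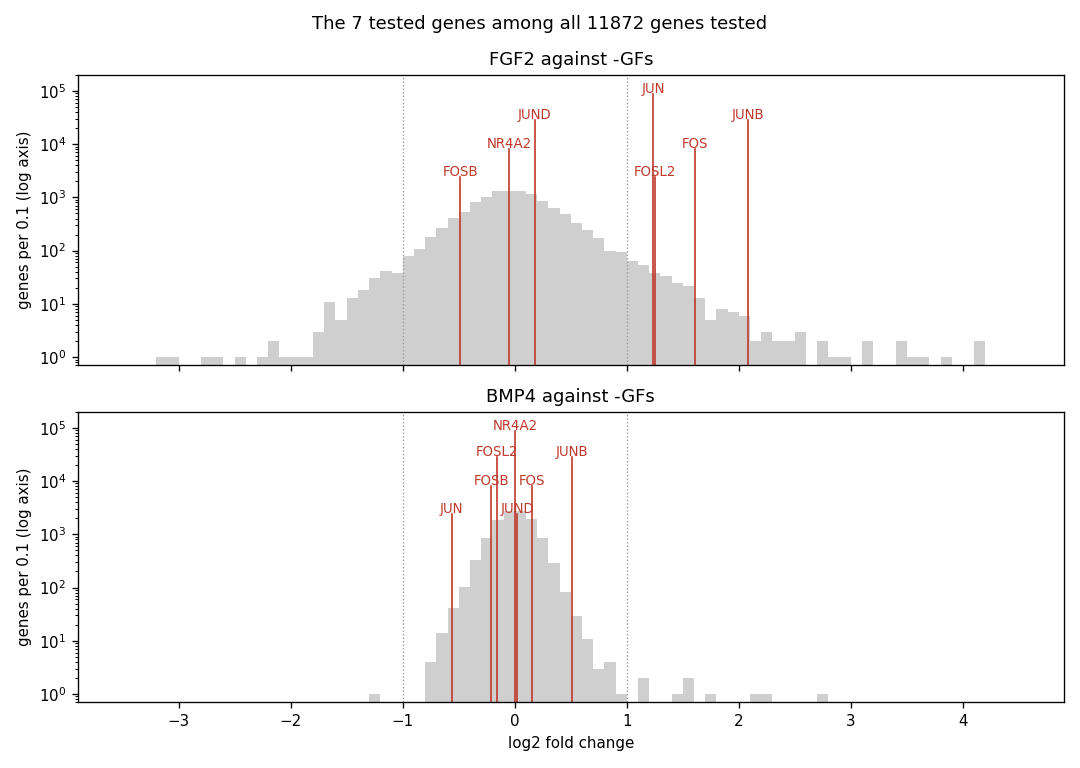
Histogram of the log2 fold changes of all 11872 genes tested (number of genes per 0.1, log axis) for FGF2 and for BMP4 against -GFs, with the 7 tested AP-1 and NR4A genes as red lines of arbitrary height. With FGF2, FOSL2, JUN, FOS and JUNB lay beyond the dotted line at a log2 fold change of 1, and with BMP4 none of the 7 did.

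The difference between the factors was tested directly, on FGF2 against BMP4 arrays. FOSL2 (log2 fold change 1.41, standard error 0.20, limma adjusted p = 0.0179), JUN (1.80, standard error 0.25, limma adjusted p = 0.0155) and JUNB (1.57, standard error 0.35, limma adjusted p = 0.0555) were called higher with FGF2, as were 2.03% of all genes. FOS differed by 1.45 (standard error 0.45, limma adjusted p = 0.13), by 1.47 in replicate 1 and 1.44 in replicate 2, and did not pass. With the replicate block, FOS passed too (limma adjusted p = 6.59e-05, and between 4.47e-06 and 0.522 over all alternatives), where 2.30% of all genes were called higher with FGF2. FOSB, JUND and NR4A2 had log2 differences of -0.28, 0.16 and -0.05 without a call. Of the 3 genes called, FOSL2 alone remained without FGF2 replicate 1 and JUN alone without FGF2 replicate 2, while JUNB was lost without BMP4 replicate 1 or 2 as well. JUNB also lost its call with neqc (1.69, limma adjusted p = 0.101, between 1.93e-08 and 0.327 over all alternatives), and FOSL2 with the mean of its probes (0.69). This comparison and those with -GFs share arrays.

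**Figure D4:**
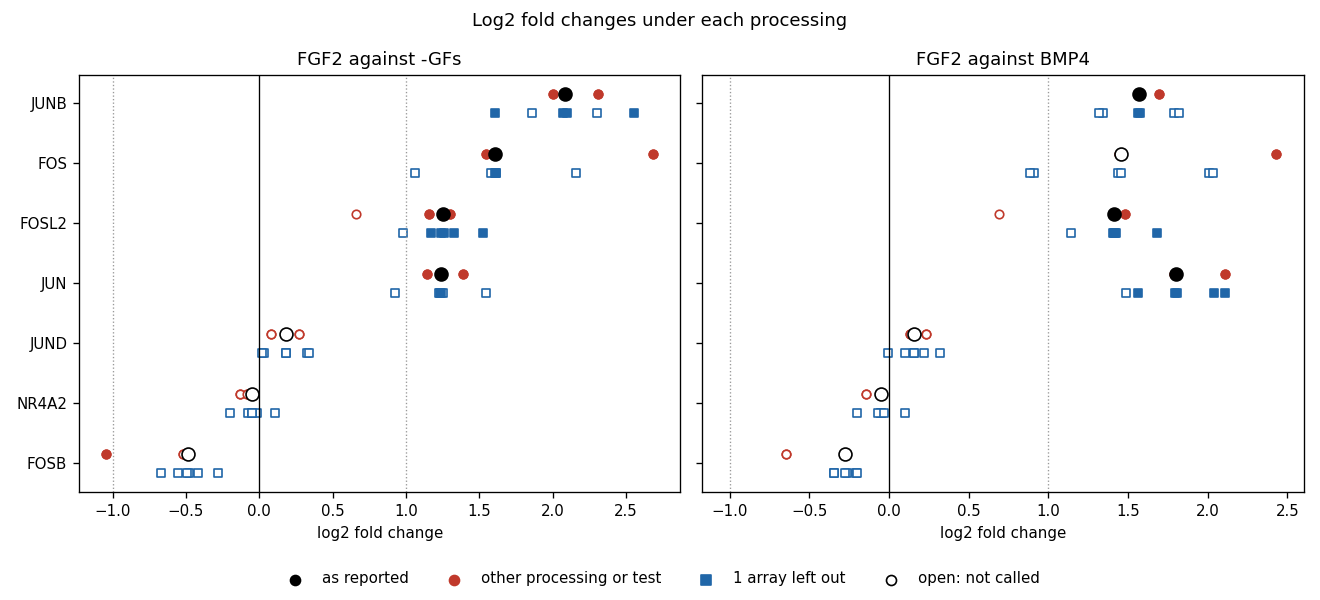
Log2 fold change of the 7 tested genes under every processing tried, for FGF2 against -GFs and FGF2 against BMP4, with black circles for the values reported, red circles for other processing or tests, blue squares for fits with 1 array left out, and open symbols where the gene was not called. For FGF2 against -GFs, JUNB, FOS, FOSL2 and JUN lay to the right of 0 in all of them, and the open squares show which calls were lost.

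Likeness of the 4 genes that rose over the 6 arrays was measured as the Euclidean distance between log2 intensities, each gene centred on its mean. Among the 4, distances ran from 0.985 for FOS and FOSL2 (Pearson's r 0.89) and 0.999 for FOSL2 and JUN (r 0.85) to 1.81 for FOS and JUN (r 0.60). FOS and JUN differed in which FGF2 array was the brighter, replicate 2 for FOS and replicate 1 for JUN. Over all tested genes outside the family, the nearest to FOSL2 were ANK1 (distance 0.115, r 0.997), the hyaluronan receptor gene CD44 (0.19) and the growth factor gene TGFB1 (0.19). JUNB was nearest to PHLDA1 (0.31, r 0.996), followed by LOC100047934 (0.58) and NOL5A (0.60). The nearest to JUN were 6330406I15RIK (0.49), MYO1E (0.56) and FAM110C (0.61), and to FOS the interferon-inducible gene IFI205 (0.63), the matrix signal gene CYR61 (0.73) and LOC100046690 (0.74). These distances rest on 6 arrays, which all genes share, and describe the pattern only.

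Other genes of the pathway are given by lists, as counts and medians. The lists were chosen with earlier results of these data known, so their counts are descriptions and no independent support. Over all genes, the median was -0.02 for FGF2 and 0.0022 for BMP4, with 2.28% called higher for FGF2. The kinases and regulators on the way from the FGF receptor to these promoters were not called in either comparison with -GFs: of 30 listed, 23 were tested, and their median log2 fold change was 0.08 with FGF2 and -0.0019 with BMP4. SRF, which binds the CArG box, had a log2 fold change of 0.99 (limma adjusted p = 0.121) and did not reach the threshold on the fold. It was chosen after its value was seen. Of 15 other leucine zipper proteins that can join AP-1 or compete with it, 6 were tested, and MAFG, a small MAF protein without an activation domain, was called higher (1.495, standard error 0.15, limma adjusted p = 0.00699). The median of the 6 was 0.10.

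Of 25 genes known as AP-1 targets, 19 were tested and 10 were called higher with FGF2 and none lower, with a median log2 fold change of 1.29. The 6 largest were those of the matrix protein and cytokine SPP1 (3.45, standard error 0.41), the chromatin protein HMGA1 (2.99, standard error 0.23), the chemokine CCL2 (2.26, standard error 0.35), the metallothionein MT2 (1.86, standard error 0.20), the urokinase receptor PLAUR (1.65, standard error 0.24) and the EGF receptor ligand HBEGF (1.47, standard error 0.17). Their limma adjusted p-values ran from 0.00414 for HMGA1 to 0.0187 for CCL2. With BMP4 none of the 19 was called, and their median was -0.03. With the replicate block, FGF7, a growth factor for epithelial cells, was called higher with FGF2 as well (1.23, limma adjusted p = 0.000816). Many of these genes also answer to other factors, and binding of AP-1 was not measured. This list too was chosen with earlier results known, so its counts are no independent sign of AP-1 activity.

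Of 14 dimer partners and known targets of NR4A proteins, 8 were tested, with a median of -0.25 for FGF2 and 0.13 for BMP4. TXNIP, which binds thioredoxin and restrains glucose uptake, was called lower with FGF2 (-1.12, standard error 0.18, limma adjusted p = 0.0213), and none was called with BMP4.

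Of 21 other immediate early genes, 16 were tested, 8 were called higher and 1 lower with FGF2, and the median was 1.04. The 6 largest changes among these were rises of the zinc finger factors EGR1 (4.19), EGR2 (4.13) and EGR3 (3.43), of IER3 (2.52), and of the matrix signal genes CYR61 (1.62) and CTGF (1.57), with limma adjusted p-values from 0.0011 for EGR2 and EGR3 to 0.0621 for CTGF. GADD45B, a stress response gene, was the one that fell (-1.48, limma adjusted p = 0.00808). With BMP4, the median was -0.12 and none was called, while CTGF was called with the replicate block (1.11, limma adjusted p = 0.0255). By fold change in this fit, EGR1, EGR2, EGR3 and IER3 stood above all 4 AP-1 genes that rose at 3 h. These are folds of different probes, and FOS was near the detection limit in -GFs medium.

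**Figure D5:**
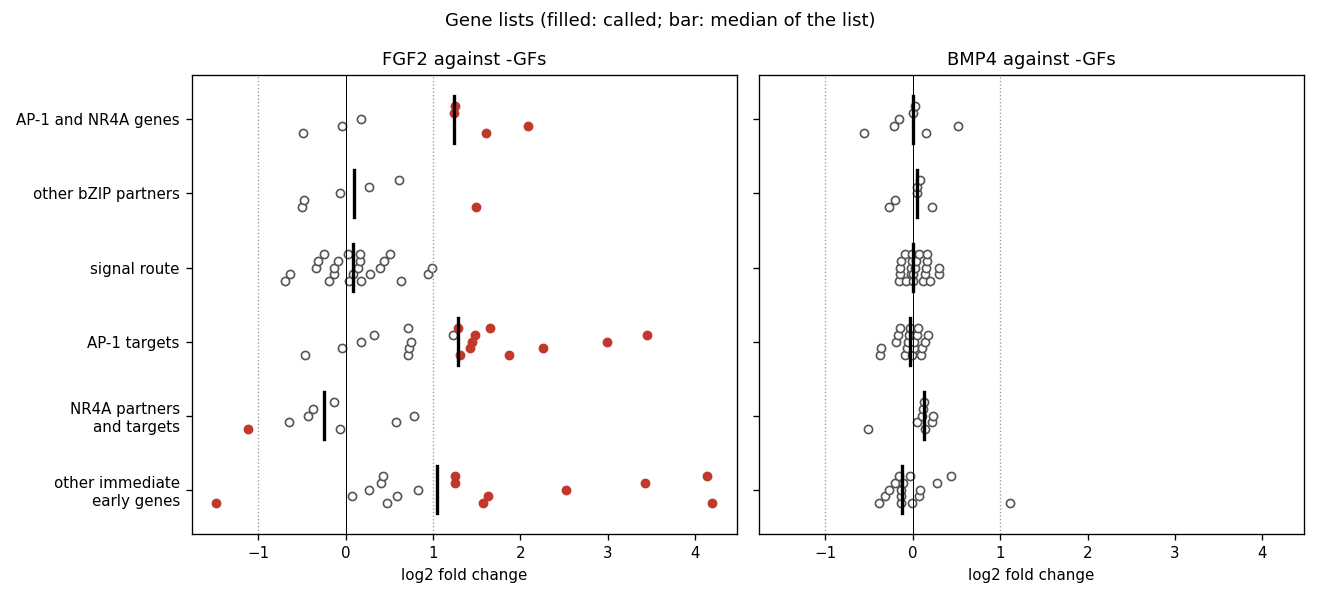
Log2 fold change of each tested gene of the lists, for FGF2 and for BMP4 against -GFs, with filled circles for genes called and a vertical bar at the median of each list. With FGF2, filled circles gathered among AP-1 and NR4A genes, AP-1 targets and other immediate early genes, and with BMP4 no circle was filled.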

How the data were processed

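RNA of 6 PA6 cultures was hybridized to MouseWG-6 v2.0 BeadChip arrays (Illumina). The authors deposited mean bead intensities before normalization, with detection p-values, from GenomeStudio 2011.01 per the labels. Values in 9 columns without a heading and 6 leftover lines were not used. The cubic spline of the methods was re-implemented here in R 4.3.3 (452 quantiles, mapped onto the mean of all arrays), and values were converted to log2. Each gene was represented by its retained probe with the largest mean. limma 3.58.1 was fitted on all 6 arrays without a block, with Benjamini-Hochberg adjustment over 11872 genes, and was tested on simulated data. Symbols, synonyms and promoters are from RefSeq (GRCm38.p6), and a synonym of several genes was not used. The genes, lists and tests were chosen with earlier results of these data known. Genes of the lists are named if called, up to the 6 largest changes per list.

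Replicate numbers pair the arrays. The labels describe each biological replicate as one untreated, one FGF2 and one BMP4 well, and arrays of the same number deviated together from their group means (the correlation over genes was 0.602 between -GFs and FGF2, 0.741 between -GFs and BMP4, and 0.579 between FGF2 and BMP4). The alternatives were other normalizations (quantile, neqc, median scaling), detection filters, probe choices, models, tests and thresholds, and each array left out in turn. The number of arrays limits the precision. Co-cultures were not analysed here.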

Additional observations from a re-analysis of the deposited data

How the results depend on the processing

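For FGF2 against -GFs, the 4 genes called became 1 (FOSL2) by the methods' t-test at an unadjusted p under 0.05. By that rule, 202 of all 11872 genes were called higher and 124 lower. After Benjamini-Hochberg adjustment the count was 0, where 1 gene had an unadjusted p under 0.05 and limma called 4. The adjusted t-test called 0 of all 11872 genes in each comparison and so says nothing about these genes. With 1 array left out the count lay between 0 and 4. For FGF2 against BMP4, the 3 genes called became 0 by the adjusted t-test, where 3 had an unadjusted p under 0.05, and lay between 1 and 3 with 1 array left out. With the replicate block, 4 genes were called for FGF2 against -GFs, 0 for BMP4 and 4 for FGF2 against BMP4. The block added the call of FOS in the last comparison and changed no other call of the 7 genes. FOS lost its call for FGF2 with neqc (2.69, adjusted p = 0.127), without a detection filter (adjusted p = 0.105) and at an adjusted p under 0.05, was not retained when detection on all 6 arrays was required, and had an adjusted p between 1.25e-06 and 0.4 over the alternatives. With neqc and the replicate block, an alternative chosen after seeing the data, FOSB was called lower (-1.04). Median scaling gave 208 genes higher and 209 lower with FGF2, in place of 271 and 148.

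Small values changed sign. For BMP4, JUND came to -0.055 and NR4A2 to -0.026 with median scaling, with or without the block. With 1 array left out, values lay between -0.13 and 0.17 for JUND, -0.025 and 0.037 for NR4A2 and -0.42 and 0.72 for FOS. For FGF2 against -GFs, NR4A2 lay between -0.20 and 0.11. For FGF2 against BMP4, JUND lay between -0.0044 and 0.32 and NR4A2 between -0.20 and 0.10. The cause of these changes was not tested. Each fit with 1 array left out has 1 residual degree of freedom fewer. Such a fit also leaves 1 array in the group concerned, so that a comparison with that group rests on 1 array there. Why calls were lost was not tested.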
